A study of Mus musculus with 15 samples.

Results

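The RNA that a mouse zygote holds is almost wholly inherited from the egg, and the comparison described here asked how far that inherited transcriptome differed when the egg had grown without Usp16. The 4 zygote RNA-seq libraries of the series were used, 2 from WT and 2 from cKO zygotes, out of 8 RNA-seq libraries and 15 samples in all; the H2AK119ub1 ChIP samples were not analysed here. WT zygotes came from Usp16+/+ females. The cKO zygotes came from Usp16 fl/fl;Gdf9-Cre females, in which Cre is switched on by an oocyte promoter from the primordial follicle stage and removes part of Usp16 in frame, and they were sired by WT males, so that the maternal allele was deleted and the paternal allele was intact. Both kinds of female were superovulated juveniles on a C57BL/6 background, and 10 embryos were pooled in each library. The 2-cell libraries of the same 2 genotypes, 2 of each, were used for side-by-side values, for a test of whether the difference between genotypes changed with stage, and in an alternative fit of all 8 libraries.

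All 14392 genes of the deposited FPKM table were considered (fragments mapped to a gene, scaled by transcript length and by library size, a level per length). In that table every value under 1 had been set to 1, so that 1 is a floor and not a measurement. Of these genes, 3770 were at the floor in all 4 zygote libraries. The 8542 genes with a mean of at least 2 FPKM over the 4 libraries were tested, and the other 5850 were not. Read counts are not part of the table, which leaves the sequencing depth unknown and allows no counting interval. The files do not say whether the libraries of a genotype came from different females, and the spread between them may be partly technical.

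Usp16 is a deubiquitinase that takes ubiquitin off a lysine of histone H2A. The mark, H2AK119ub1, is written by Polycomb repressive complex 1 (PRC1) and is best known for its place in gene silencing. The growing oocyte transcribes and stores the mRNAs, proteins and ribosomes of the early embryo and then falls silent, and the zygote reads and clears those stores before its own genome is switched on in force. In bulk libraries of pooled embryos, less RNA per embryo and fewer embryos with that RNA cannot be told apart.

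Egg and zygote genes were abundant in all 4 libraries. All 14 of the oocyte and zygote markers were tested, with Oosp1 at 6607 to 8040 FPKM, Dppa3 at 5681 to 6984 and Btg4 at 5126 to 6041 over the 4 libraries. Markers of other cells were mostly at the floor. None of the oviduct markers, 1 of the blood cell markers, 4 of the sperm markers and 2 of the cumulus and granulosa cell markers reached the tested level, and the defining genes Ovgp1, Hba-a1, Prm1, Tnp1, Foxl2 and Amhr2 were at the floor in all 4 libraries. The summed level of the cumulus and granulosa list was 51.3 and 57.7 FPKM in WT and 56.4 and 62.0 in cKO zygotes and was carried by Bmpr1b (19.6 to 34.4 over the 4 libraries) and Cyp19a1 (22.3 to 26.7), while the other 5 were at the floor in all 4. The sums were 56.6 and 44.8 against 52.0 and 47.0 for the sperm list, 5.40 and 5.68 against 5.38 and 5.13 for the oviduct list, and 11.5 and 9.47 against 11.0 and 10.2 for the blood list. Among sperm markers Odf2 and Prm2 carried the sum, and Ldhc was separated on the lower side at 3.62 and 1.74 against 1.45 and 1.45. The cumulus, sperm and blood sums overlapped between genotypes, and the oviduct sums, which are floor values but for Cftr, differed by less than 1 FPKM.

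Usp16 was strongly lower in cKO zygotes. Its level was 184 and 187 FPKM in WT and 16.8 and 21.99 in cKO zygotes, a 9.58-fold difference of the means (log2 fold change -3.21, SE 0.20, limma adjusted p = 0.00139). The exact permutation test (two-sided) gave p = 0.333, which is the smallest value that 2 libraries against 2 allow. The call was lost, at an adjusted p of 0.236, when the genes under 2 FPKM were tested as well. In that fit the log2 fold change was the same and its SE smaller (0.16). It takes in the 3770 genes at the floor in all 4 libraries, which show no spread. In 2-cell embryos, which carry the intact paternal allele, Usp16 was at 168 and 183 FPKM in WT and at 168 and 84.8 in cKO. Usp16 lies on chr16:87454948-87483762 (mm9, forward strand), and 3 tested genes beside it overlapped or differed by little, with Cct8 (a chaperonin subunit) at 210 and 193 against 191 and 188, Ltn1 at 2.72 and 2.51 against 2.83 and 2.70, and Rwdd2b at 13.6 and 12.1 against 12.4 and 8.27. The next tested gene, Cldn8 (a claudin), at a distance of 1077 kb, was at 23.8 and 15.9 against 32.3 and 30.6, above WT without overlap (1.58-fold, adjusted p = 0.647).

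The rest of the inherited transcriptome was very similar in level. By the ratio of the group means, 91.4% of the tested genes were within 1.5-fold of WT and 98.6% within 2-fold. The difference between genotypes was about as large as the difference between libraries of 1 genotype. On the log2(FPKM + 1) scale, the median absolute difference per gene was 0.29 between the WT libraries and 0.20 between the cKO libraries, and it ran from 0.17 to 0.28 over the 4 pairs of a WT with a cKO library. WT replicate 2 and cKO replicate 2 were closer to each other (0.17) than either was to the other library of its own genotype.

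limma called 4 genes higher (0.0468% of those tested) and 1 lower (0.0117%) in cKO zygotes at an adjusted p under 0.05. The lower gene was Usp16, and 3 of the higher ones were non-coding RNAs that do not behave like mRNAs in such a table. Rn45s, the precursor of the large ribosomal RNAs, was listed at 1 in each WT library and reached 5930 and 5476 FPKM in cKO zygotes (adjusted p = 2.04e-07). Scarna17 and Scarna3b, small Cajal body RNAs whose annotated transcripts are 79 and 139 bases long, were likewise listed at 1 in each WT library and reached 707 and 807 and 17.6 and 20.05 in cKO zygotes (adjusted p = 1.27e-06 and 0.00112). The Scarna3b call was lost when genes under the minimum level were tested as well (adjusted p = 0.236), and both were lost in the limma fit of all 8 libraries (adjusted p = 0.914 for Scarna17 and 0.99987 for Scarna3b), where Rn45s, Mfhas1 and Usp16 still passed. The fit of all 8 libraries takes in the spread of the 2-cell libraries. In it the SE of the zygote difference rose from 0.19 to 2.06 for Scarna17 and from 0.20 to 1.16 for Scarna3b. Other small non-coding RNAs switched between the floor and a high value within a genotype. Scarna2 was at 407 in 1 cKO library and at the floor in the other 3, Rnu11 at 12.6 in 1 WT library and at the floor in the other 3, and Scarna8 at 8.68 and 118 in WT and at 1 and 61.5 in cKO.

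Mfhas1 was the 1 protein-coding gene called higher. It encodes a leucine-rich repeat protein and lies on chr8:36650852-36742503 (mm9, forward strand). Its level was 1.02 and 1.75 FPKM in WT and 11.2 and 10.9 in cKO zygotes (log2 fold change 2.35, SE 0.23, adjusted p = 0.0197), and it was at the floor in all 4 2-cell libraries. The Mfhas1 call, too, was lost without the minimum level (adjusted p = 0.589). Without the small non-coding RNA genes, limma called 1 gene higher and 1 lower.

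Before adjustment, at p under 0.05, 473 genes were higher (5.54%) and 145 lower (1.70%), against 439 and 254 after median-ratio scaling of the libraries. Of these, 4 higher and 1 lower passed the adjustment over all genes, as given before. With the replicate number as a further term in the fit, 257 higher and 59 lower passed. On simulated data for this comparison (8542 genes, 200 of them changed), limma found 0% of 2-fold changes and 96.9% of 4-fold changes. The 96.9% holds for 200 genes changed together, which eases the adjustment. Simulated libraries varied independently, with the same spread in both genotypes. The real libraries of the same number deviated together (correlation 0.520 over genes). Neither share is therefore a measure of what was missed here. In these libraries Cdo1 (log2 fold change 2.03, adjusted p = 0.229) and Hormad1 (-2.60, adjusted p = 0.515) did not pass limma. Leaving out any 1 library also raised the counts above 4 and 1. In those fits limma drew almost all of its estimate of the spread from other genes.

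**Figure D1:**
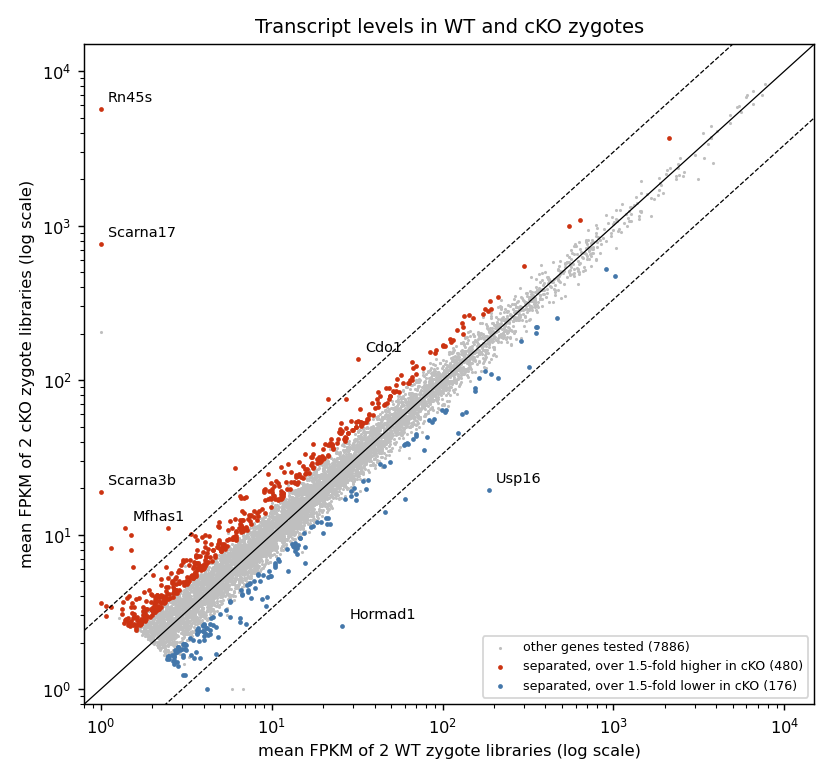
Mean FPKM of each tested gene in the 2 WT zygote libraries (horizontal axis) against that in the 2 cKO zygote libraries (vertical axis), both on log scales. The solid line marks equal levels and the dashed lines 3-fold; red and blue points are the 480 and 176 genes separated by over 1.5-fold, and Usp16, Hormad1 and the RNAs at the WT floor stand off the diagonal.

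By the ratio of means alone, 15 genes were over 3-fold higher (0.104% of all genes listed) and 7 over 3-fold lower (0.0486%). Most of them were at low levels, and the groups overlapped only for Scarna2, Rnu11 and Scarna3a. Cdo1, the cysteine dioxygenase that starts taurine synthesis, was the most abundant mRNA on the higher side, at 37.0 and 26.7 FPKM in WT and 172 and 101 in cKO zygotes (4.29-fold). Fxyd6, a small regulator of the sodium pump, was at 7.63 and 4.65 against 36.04 and 18.02. Rln3, a relaxin hormone, was at 12.3 and 30.2 against 96.8 and 54.2. None of these 3 passed limma, with adjusted p of 0.229, 0.403 and 0.518.

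The other RNAs over 3-fold higher were under 15 FPKM in every zygote library, apart from the non-coding RNAs and Mfhas1 given before. They were Mef2b (a muscle and lymphoid transcription factor) at 1.34 and 1.67 against 13.3 and 6.599, Ifi30 (a lysosomal thiol reductase) at 1.495 and 1.495 against 11.1 and 4.83, and Plac1 (a placental gene) at 1.98 and 2.96 against 13.4 and 8.67. Tpm4 (a tropomyosin), Klk15 (a kallikrein protease), Prl2a1 (a placental prolactin relative) and 1110007C09Rik were at 1 to 2.07 FPKM in WT and at 2.94 to 12.6 in cKO zygotes. Mfhas1, Mef2b, Ifi30, Tpm4 and Rln3 all lie on chr8, as does Eri1, described below, which is close to Mfhas1. Cdo1, Fxyd6, Klk15, Plac1, Prl2a1 and 1110007C09Rik lie on other chromosomes. The chromosomes were looked up after the values were seen, and Eri1 comes from another ranking. The share of all tested genes on chr8 is not given here, so these genes cannot be read as an excess. A part of position in these differences was not tested. The count of genes over 3-fold moved, mostly upwards, when a library was left out. It was 37 higher without WT replicate 1, 30 higher and 19 lower without WT replicate 2, and 39 higher and 16 lower without cKO replicate 2.

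On the lower side, Hormad1, which marks unpaired chromosome axes in meiotic prophase, had the largest ratio of means (10.1-fold), ahead of Usp16. It lies on chr3:95363599-95391593 (mm9) and was at 9.82 and 41.9 FPKM in WT and 2.46 and 2.66 in cKO zygotes, and the wide spread between the WT libraries left it at an adjusted p of 0.515. Ndufs5, a complex I subunit, was at 83.9 and 36.7 against 26.2 and 7.85. Defb41, an epididymal defensin, was at 71.3 and 21.04 against 8.17 and 19.7. Olfr287, an olfactory receptor, was at 2.59 and 5.82 in WT and at the floor in both cKO libraries. Each cKO library was below each WT library for all 4, but for Defb41 by only 1.07-fold.

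A fold of means does not say whether the libraries separate, so genes were also counted by whether both cKO libraries lay above or below both WT libraries. Both cKO libraries were above both WT libraries for 1863 genes (21.8% of those tested) and below for 1279 (15%). After median-ratio scaling the split was 1641 above and 1664 below, so the excess of higher genes depended on the scaling. Asking in addition for means more than 1.5-fold apart left 480 genes higher (5.62%) and 176 lower (2.06%), or 414 and 236 after scaling. Leaving out a library moved these counts in both directions. The higher genes numbered 1091 without WT replicate 1, 651 without WT replicate 2, 395 without cKO replicate 1 and 883 without cKO replicate 2, and the lower genes 150, 597, 396 and 277.

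The genes that separate most widely at useful levels (mean of at least 10 FPKM) were ranked by the gap between the lowest library of the higher genotype and the highest library of the lower one. On the higher side came, after Rn45s, Scarna17, Cdo1 and Fxyd6, the following genes. Abcc4, an exporter of cyclic nucleotides and drugs, was at 6.14 and 6.99 FPKM in WT and 19.6 and 15.9 in cKO zygotes. Kcnn2, a calcium-activated potassium channel, was at 17.3 and 17.6 against 41.7 and 35.7. Ormdl1, a brake on sphingolipid synthesis, was at 8.86 and 9.09 against 20.4 and 17.1, and the membrane protein gene Tmem59 was at 22.5 and 32.3 against 84.1 and 66.6. The ranking itself favours genes whose replicates lie close together, and none of these genes passed limma (adjusted p from 0.265 to 0.430).

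Eri1, an exonuclease that trims the 3′ end of histone mRNAs, lies on chr8:36528319-36558587 (mm9, reverse strand) and was at 10.6 and 13.0 FPKM in WT and 24.6 and 26.1 in cKO zygotes (2.15-fold, adjusted p = 0.407). Rpf2, an assembly factor of the large ribosomal subunit, was at 8.36 and 9.69 against 18.4 and 20.7. The uncharacterised genes 1110020A21Rik (6.62 and 6.67 against 18.1 and 16.6) and Gm10845 (10.1 and 12.7 against 29.5 and 25.03) complete the 12.

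The lower side of the same ranking was narrower. Below Usp16 and Hormad1 came Lars2, the leucyl-tRNA synthetase of mitochondria, at 864 and 1181 FPKM in WT and 503 and 435 in cKO zygotes (2.18-fold). Among ribosome and respiratory chain genes, Rps2 was at 447 and 196 against 124 and 118, Rps12 at 173 and 101 against 64.9 and 59.8, and Ndufa1 at 171 and 75.9 against 39.6 and 51.6. In all 3, WT replicate 1 alone was far above the other libraries. Traip, a ubiquitin ligase of the replication fork, was at 15.5 and 12.1 against 8.01 and 7.70, Sae1, a subunit of the SUMO-activating enzyme, at 15.4 and 13.0 against 8.33 and 8.87, and Sap30l, of the Sin3 deacetylase complex, at 21.98 and 19.8 against 12.2 and 13.5. The uncharacterised 4930564K09Rik, D4Bwg0951e and 1600021P15Rik were 1.87-fold, 1.61-fold and 1.65-fold lower. None of these genes but Usp16 passed limma, with adjusted p of 0.403 or more.

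**Figure D2:**
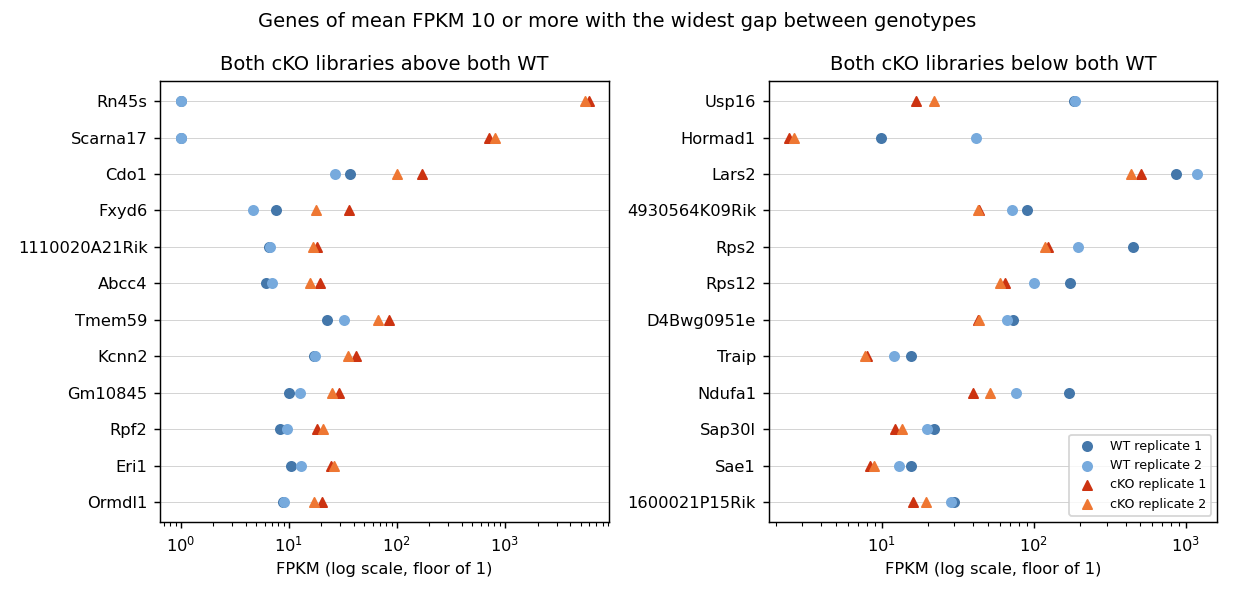
FPKM (log scale, floor of 1) in each of the 4 zygote libraries for the 12 genes in each direction with the widest gap among genes of mean 10 FPKM or more; circles are WT and triangles cKO libraries. Apart from Rn45s, Scarna17, Usp16 and Hormad1, the gaps are small beside the range of levels, from 1.46-fold for 1600021P15Rik to 2.73-fold for Cdo1.

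By function, the inherited transcriptome was then read through 49 gene lists, each set beside the same counts over all genes tested (21.8% above, 15% below, 5.62% and 2.06% separated by over 1.5-fold, median log2 fold change 0.03). The members of these lists that limma called were Usp16 and the non-coding Rn45s, Scarna17 and Scarna3b. Single members below are described by their levels, and adjusted p was above 0.05 for all others.

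Other genes of the H2A ubiquitin cycle differed by less. Of the 10 H2A deubiquitinases listed 7 were tested, and Usp16 was the only one separated by over 1.5-fold. Usp28 was at 79.7 and 105 FPKM in WT and 84.7 and 92.2 in cKO zygotes, and Usp3 at 68.5 and 49.3 against 61.1 and 57.2. Among 17 tested PRC1 subunits, 3 were above, 2 below and 0 separated by over 1.5-fold (median 0.09). Pcgf1, of the variant complexes, was at 1598 and 940 against 1475 and 1186, Bmi1 at 240 and 399 against 288 and 379, and Pcgf6 at 189 and 184 against 193 and 172. Among 10 tested PRC2 subunits, which write H3K27me3, 1 was above and 5 below (50.0%), also with 0 separated by over 1.5-fold (median -0.04). The methyltransferase Ezh2 was at 342 and 422 against 301 and 305, while its partners Rbbp7 (1958 and 1731 against 1665 and 1720) and Eed (176 and 171 against 178 and 172) differed by less. Of 52 other deubiquitinases tested, 10 were above and 11 below, again with 0 separated, and the neuronal and oocyte hydrolase Uchl1 was at 1577 and 1279 against 1384 and 1119.

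Lists of egg mRNAs held few members separated by over 1.5-fold, beside 5.62% higher and 2.06% lower over all genes tested. Of the 6 genes of the subcortical maternal complex, the assembly under the egg cortex that embryos need to cleave, 1 was above (Ooep) and 2 below (33.3%, Padi6 and Nlrp5), only Ooep had a positive difference, and the median of -0.20 was the lowest of the lists. Ooep was at 681 and 600 FPKM in WT and 1282 and 890 in cKO zygotes (1.70-fold, adjusted p = 0.585), Padi6 at 546 and 435 against 380 and 303, Nlrp5 at 210 and 250 against 186 and 205, and Zbed3 at 3542 and 3887 against 3756 and 3592. Among 10 Nlrp genes of the oocyte (1 above, 2 below), 7 zona pellucida and secreted factors (1 above, 0 below), 11 oocyte transcription factors and germ cell genes (2 above, 1 below) and 5 Obox homeobox genes (2 above, 0 below), 0 were separated by over 1.5-fold. Their most abundant members were Nlrp4f (1084 and 1226 against 978 and 1097), Oosp1, Dazl (413 and 564 against 546 and 632) and Obox5 (4252 and 3812 against 4099 and 4107). The 13 Oogenesin and Pramel genes had 5 above and 6 below, with AA792892 (137 and 126 against 211 and 185) and E330014E10Rik (1.77 and 3.10 against 4.19 and 4.11) separated on the higher side.

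Neither the storage nor the clearance of maternal mRNA showed members that separated by over 1.5-fold, beside 5.62% higher and 2.06% lower over all genes tested. In lists this short, 0 lies near that background. Of 18 tested genes for storage and translational control, 2 were above and 3 below, and Zar1, needed to hold mRNAs in the oocyte, was at 406 and 295 FPKM in WT and 327 and 245 in cKO zygotes. Of 20 tested decay genes, 4 were above and 3 below. Btg4, the adaptor that brings deadenylase to maternal mRNAs, was at 5126 and 5780 against 5843 and 6041, and the deadenylases Cnot7 (383 and 457 against 431 and 472) and Cnot6l (187 and 255 against 176 and 222) overlapped between genotypes.

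Histone genes were the protein-coding list furthest above the rest. Of 29 tested core and linker histone genes, 15 were above (51.7%) and 2 below, 8 were separated by over 1.5-fold on the higher side (27.6%) and 1 on the lower, and the median log2 fold change was 0.29. The list had 26 genes with a positive difference. It holds 49 genes in all, and the other 20 were under 2 FPKM. After median-ratio scaling the counts were 13 above, 2 below, 8 and 1, with a median of 0.24. The count leaned on cKO replicate 1: against WT replicate 1 the median was 0.41 for cKO replicate 1 and 0.09 for cKO replicate 2.

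Histone genes fall into a pair of classes that differ in their mRNA. The genes of the clusters, named Hist, are mostly switched on for DNA replication and end their mRNA in a stem-loop in place of a poly(A) tail, while single genes such as H3f3a make polyadenylated mRNA in all phases. The library protocol primes on poly(A), so a low level here is that of the molecules that were primed. Of 19 tested Hist genes 12 were above and 1 below, with 7 and 1 separated by over 1.5-fold and a median of 0.44. The 10 other histone genes had 3 above and 1 below, 1 separated, and a median of 0.07.

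The stem-loop was searched on the sense strand in the 300 bases after the annotated stop codon (mm9), on exact letters in either of the 2 forms printed here. It was found in 25 of 13333 genes scanned (0.188%), all of them histone genes, and in 11 of the 8127 tested genes scanned (0.135%). Those 11 had 6 above and 0 below, 3 separated by over 1.5-fold, and a median of 0.43. The other 18 tested histone genes, 1 of which could not be scanned, had 9 above, 2 below, 5 and 1 separated, and a median of 0.22. Stem-loops of the 3 that separated and of 1 that did not (Hist1h4c) are shown because they carry both forms of the element, with 7 bases of flank on each side and the stem-loop of 16 bases in capitals; the choice was made with the values known.
Hist1h4m: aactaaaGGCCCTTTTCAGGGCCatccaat
Hist1h1a: acccaacGGCTCTTTTCAGAGCCaccaaca
Hist1h2bc: ttccaaaGGCTCTTTTCAGAGCCacccact
Hist1h4c: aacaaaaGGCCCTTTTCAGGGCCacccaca
They lie at chr13:21903998-21904013, chr13:23856261-23856276 and chr13:23776516-23776531 on the forward strand and at chr13:23789958-23789973 on the reverse strand (capitals only), 34, 34, 35 and 34 bases after the stop codon. The H4 genes share 1 form of the stem and the H1 and H2B genes the other.

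Hist1h1a, a linker histone gene, was at 29.5 and 34.7 FPKM in WT and 64.0 and 44.3 in cKO zygotes, and Hist1h2bc, an H2B gene, at 12.2 and 10.6 against 18.7 and 17.8. Hist1h4m, an H4 gene, was near the floor in WT, at 1.29 and 1 against 4.99 and 1.82. Hist1h4c was at 48.4 and 33.0 against 66.6 and 27.3 and overlapped between genotypes. Without an exact match in the window, Hist1h4i (1.75 and 1.08 against 5.30 and 2.47), Hist1h4a (5.25 and 2.17 against 8.69 and 5.79), Hist1h3g (2.02 and 1 against 3.48 and 2.07) and Hist1h2ba, a germ cell H2B (33.7 and 28.5 against 59.4 and 39.4), also separated, as did the variant H2A gene H2afj (4.5 and 3.16 against 7.07 and 4.85). Hist2h4 was the 1 histone gene separated on the lower side, at 4.24 and 2.77 against 1.94 and 1.26. Cluster histone genes have near-identical copies, so reads may have been split among them and single values are uncertain.

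Abundant histone mRNAs differed less. The replacement H3.3 genes H3f3a (616 and 590 FPKM in WT, 738 and 729 in cKO) and H3f3b (928 and 1153 against 1175 and 1354) were above without overlap but 1.22-fold apart, and the oocyte linker histone H1foo (1759 and 2544 against 2574 and 2162) overlapped. Slbp, the protein that binds the stem-loop, was at 2210 and 2555 against 2480 and 2529. Of 24 histone chaperones tested, 3 were above and 5 below with 0 separated by over 1.5-fold, and Npm2, which unpacks sperm chromatin, was at 836 and 689 against 722 and 613.

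**Figure D3:**
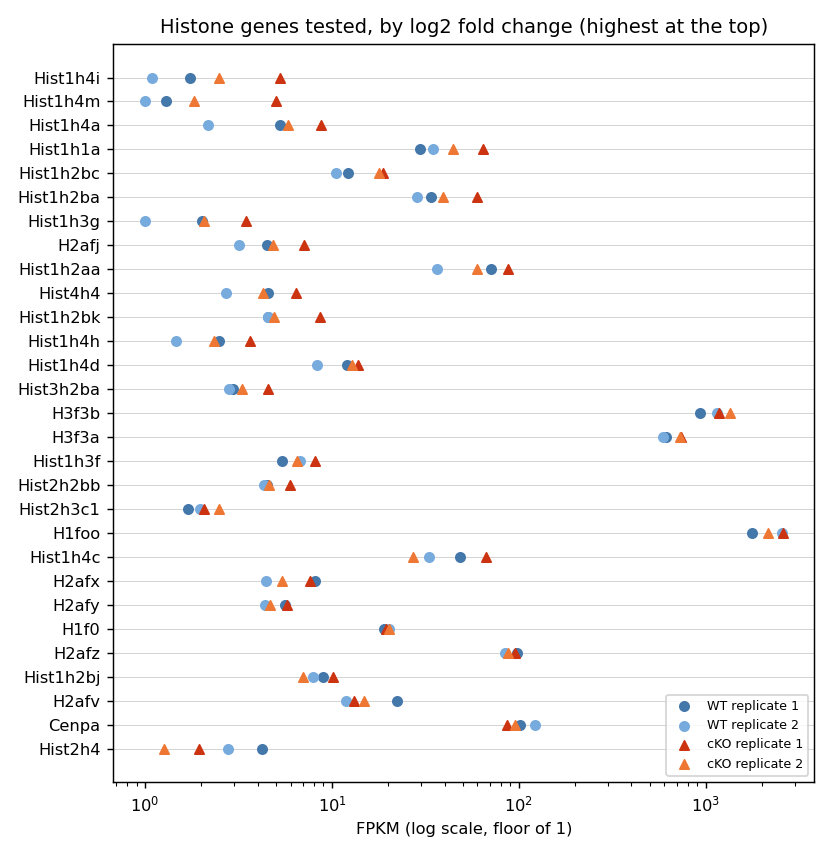
FPKM (log scale, floor of 1) of the 29 tested histone genes in each zygote library, ordered by log2 fold change; circles are WT and triangles cKO libraries. The upper rows are mostly cluster genes under 100 FPKM with cKO replicate 1 farthest to the right, and H3f3a, H3f3b and H1foo sit near or above 600 FPKM with smaller differences.

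Most cluster histone mRNAs are short, and over all genes tested short transcripts were separated more often. Among 638 tested genes whose longest annotated transcript is under 1000 bases, 13.6% were separated on the higher and 4.86% on the lower side, against 4.75% and 1.82% of 7704 longer ones. The share on the higher side went from 13.9% at 750 to 1000 bases to 3.24% at 4000 bases or more. Short transcripts also differed more between the WT libraries, where the median absolute log2 difference was 0.46, against 0.27 for longer ones. Of the 16 tested histone genes under 1000 bases, 10 were above, 0 below and 7 separated, and of the 13 longer ones 5, 2 and 1. The part of transcript length in the histone counts was not tested further. Lengths were known for 97.7% of the tested genes.

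**Figure D4:**
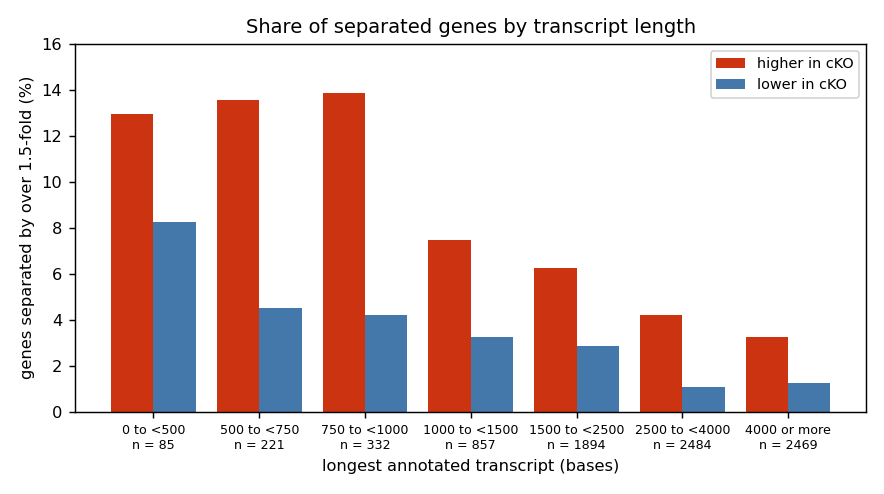
Share of tested genes separated by over 1.5-fold (vertical axis, %) in 7 classes of longest annotated transcript (horizontal axis, bases, with the number of genes); red bars are genes higher and blue bars genes lower in cKO zygotes. The red bars stand at 12.9 to 13.9% under 1000 bases and at 3.24% at 4000 bases or more.

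Protein synthesis genes showed a small excess of higher members in mitochondria. Of 73 mitochondrial ribosomal protein genes tested, 24 were above (32.9%) and 10 below, with 10 (13.7%) and 2 separated by over 1.5-fold and a median of 0.13. Mrpl33 was at 22.6 and 28.8 FPKM in WT and 43.5 and 50.3 in cKO zygotes, Mrps36 at 80.3 and 102 against 174 and 141, and Mrps10 at 4.56 and 5.90 against 9.30 and 8.21. Mrps28 (47.7 and 23.5 against 20.3 and 19.0) and Mrpl20 (10.1 and 10.8 against 4.09 and 8.94) went the other way. Against WT replicate 1 the list's median was 0.09 for cKO replicate 1 and -0.07 for cKO replicate 2, so its sign depended on the library. Among the 50 members of 1000 bases or more, 6 were separated on the higher side and 0 on the lower.

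Cytoplasmic ribosomal protein genes went in both directions. Of 84 tested, 21 were above and 12 below, with 4 and 6 separated by over 1.5-fold. The median was 0.13, and -0.03 without WT replicate 2. Rpl26 (1.91 and 1 against 4.82 and 3.24), Rpl22l1 (5.21 and 7.05 against 14.8 and 10.2), Rpl10a (8.83 and 6.15 against 16.4 and 10.0) and Rpl21 (20.1 and 16.7 against 33.7 and 28.02) were separated on the higher side, all of the large subunit. On the lower side were the stalk genes Rplp1 and Rplp2 of the large subunit and, of the small subunit, Rps2, Rps12, Rpsa (6.05 and 3.70 against 2.32 and 2.04) and Rps28 (603 and 338 against 237 and 271). Ribosomal protein genes have many processed copies in the genome, and the sharing of reads with them could not be checked. Among 31 tested nucleolar biogenesis genes 8 were above and 2 below with 0 separated, and Npm1 was at 1790 and 1837 against 1576 and 1571. Of 10 tested small-subunit maturation factors, 4 were above and 1 below, and Nob1, the endonuclease of the last rRNA cut, was separated at a low level (1.93 and 1.45 against 3.002 and 2.22). Of 55 translation factors, 6 were above and 10 below, with Eef1e1 (127 and 75.1 against 186 and 148) and Eif4ebp2 (4.17 and 3.803 against 2.51 and 2.60) separated in opposite directions.

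Of 80 respiratory chain and ATP synthase genes tested, 11 were above and 16 below, with 5 and 7 separated by over 1.5-fold and a median of 0.02. The complex I genes Ndufa9 (6.36 and 3.37 FPKM in WT, 12.4 and 10.2 in cKO), Ndufc2 (28.5 and 20.9 against 51.0 and 41.0), Ndufb7 (13.8 and 8.05 against 26.7 and 16.7) and Ndufa2 (66.0 and 40.7 against 116 and 69.3) were higher, while Ndufs5 and Ndufa1 of the same complex, Cox4i2 (4.51 and 1.69 against 1.07 and 1.40) and Cyc1 (5.52 and 2.51 against 1.82 and 2.36) were lower. The list sum was 12275 and 8536 in WT against 9981 and 9000 in cKO zygotes, the WT libraries lying on both sides of the cKO ones. In 9 tested glycolysis genes, 1 was above and 4 below (44.4%), and 1 of the 9 had a positive difference. Their sum was 4919 and 3063 in WT against 2714 and 2719 in cKO zygotes, without overlap, and Ldhb made up most of it. Ldhb, lactate dehydrogenase of the egg and the most abundant of them, was at 4697 and 2911 against 2506 and 2577, Gapdh at 39.8 and 22.7 against 19.8 and 13.9, and Tpi1 at 24.2 and 19.96 against 50.6 and 27.5. The 21 tested genes of pyruvate entry and the TCA cycle had 2 above, 4 below and 1 separated, Dlat of pyruvate dehydrogenase (16.7 and 20.2 against 11.1 and 12.8).

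Redox, sterol and transport genes are set beside the background in turn. Of 23 tested glutathione and antioxidant genes, 6 were above (26.1%) and 2 below, or 5 and 5 after median-ratio scaling, and 3 were separated on the higher side, or 2 after scaling: Gsta4 (52.9 and 31.4 FPKM in WT, 106 and 62.7 in cKO) and Gstp1 (30.8 and 23.9 against 59.2 and 39.0), which conjugate glutathione, and Txnip (151 and 196 against 290 and 244), which binds thioredoxin. The abundant peroxiredoxin Prdx2 was at 1775 and 1522 against 1177 and 1138. Of 10 tested cholesterol synthesis genes 2 were above, close to the background share, and 0 below, with Sc5d, a late desaturase of the pathway, at 47.3 and 49.3 against 74.9 and 76.1. Of 105 solute carriers 32 were above (30.5%) and 13 below, with 10 (9.52%) and 4 separated, or 26, 16, 8 and 4 after median-ratio scaling. Slc16a11 (1.56 and 1.47 against 4.47 and 2.74), Slc30a4 (2.08 and 3.13 against 5.07 and 4.61) and Slc25a13, the mitochondrial aspartate carrier (22.1 and 20.8 against 11.2 and 14.3), were among them.

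Of 60 tested heat shock and chaperone genes, 16 were above (26.7%) and 12 below (20%), with 5 and 1 separated. Dnajc15 (14.99 and 16.5 FPKM in WT, 42.3 and 23.8 in cKO) and Dnajc10 (2.55 and 3.17 against 6.66 and 5.16) were higher and the chaperonin subunit Cct7 (33.3 and 24.7 against 20.5 and 17.8) lower, while the stress-inducible Hsp90aa1 was at 1054 and 1199 against 1308 and 1457. Of 41 proteasome genes, 7 were above and 9 below, with 3 and 2 separated, and Psmd12 of the regulatory particle was at 67.9 and 60.7 against 111 and 90.9. The list picks genes by name and so includes Psmc3ip, a meiotic recombination factor, at 3.70 and 3.50 against 7.94 and 6.32. Of 38 ubiquitin, E1 and E2 genes, 10 were above and 5 below, and Ube2b, an E2 that partners Rad18, was at 24.9 and 30.8 against 45.4 and 45.5.

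Several lists of chromatin genes had a larger share below WT than the 15% of all genes tested, a share that depended on the scaling. After median-ratio scaling 1664 of the 8535 genes then tested were below. The same scaling put 3 of 11 DNA methylation factors, 19 of 61 histone methylation and acetylation enzymes and 11 of 41 remodelers below. Among 11 DNA methylation factors, 2 were above and 3 below (27.3%) and 0 were separated by over 1.5-fold. Dppa3, which shields maternal DNA in the zygote, was at 5681 and 6280 FPKM in WT against 6656 and 6984 in cKO, and the imprint factor Zfp57 at 1325 and 1135 against 1369 and 1106. Of 61 histone methylation and acetylation enzymes 8 were above (13.1%) and 17 below (27.9%), with Kdm5b (1.90 and 1.65 against 3.48 and 2.58) and Suv420h1 (4.84 and 3.91 against 7.25 and 6.99) separated higher and Sirt3 (4.78 and 3.20 against 3.01 and 1.74) lower. Of 41 remodelers 5 were above (12.2%) and 9 below (22%), and the 3 that separated by over 1.5-fold (7.32%) were lower: Smarcb1, the core SWI/SNF subunit (54.4 and 36.7 against 28.9 and 26.6), Ruvbl1 (22.9 and 16.1 against 10.5 and 13.4) and Baz1a (26.7 and 33.6 against 16.7 and 23.2). Of 81 genes of RNA polymerase II, the general factors and Mediator, 15 were above and 11 below, with 6 and 1 separated, among them Polr2d (135 and 126 against 272 and 198) and Med20 (13.0 and 14.2 against 7.38 and 9.15). Of 160 Zfp genes 42 were above and 26 below, with 3 and 1 separated. Of 64 splicing genes 10 were above and 11 below, with Lsm3 (223 and 132 against 318 and 257) higher and Snrpb (12.5 and 5.95 against 3.98 and 2.95) lower. Of 47 nuclear pore and transport genes 7 were above and 7 below, and the 2 that separated, Ran (101 and 72.0 against 49.2 and 57.9) and Tnpo2 (3.01 and 3.18 against 1.47 and 2.15), were lower.

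Of 50 meiotic exit and M-phase regulators, 12 were above and 5 below, with 2 separated, Cdc26 of the anaphase-promoting complex (34.3 and 42.5 FPKM in WT, 78.3 and 63.7 in cKO) and Mos, the kinase that holds eggs in metaphase (23.5 and 19.4 against 49.1 and 26.5). Securin, Pttg1, the most abundant mRNA of the zygote, was at 7696 and 7668 against 8132 and 8270. Of 59 kinetochore, kinesin and spindle genes, 16 were above and 9 below, and the 3 that separated were the kinetochore genes Cenpq (56.4 and 78.4 against 124 and 115) and Ndc80 (40.2 and 43.6 against 79.04 and 62.5) and the spindle gene Haus1 (6.26 and 6.92 against 12.1 and 10.9). Of 19 egg activation genes 4 were above and 2 below, with calmodulin gene Calm2 (218 and 149 against 304 and 258) and the calcineurin inhibitor Rcan1 (10.8 and 8.19 against 5.29 and 5.32) separated in opposite directions.

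Replication and repair lists held no gene separated by over 1.5-fold, beside 5.62% higher and 2.06% lower over all genes tested. Of 44 replication licensing genes 12 were above and 5 below, with Gmnn, the licensing inhibitor, at 484 and 535 FPKM in WT and 493 and 527 in cKO zygotes. Of 56 DNA repair genes 14 were above and 10 below, and Chek1, the checkpoint kinase, was at 406 and 548 against 440 and 510. Of 17 p53 pathway genes 0 were above and 1 below, with the inhibitors of p53, Mdm4 (726 and 798 against 678 and 783) and Mdm2 (52.8 and 61.9 against 52.5 and 58.5), overlapping. In 19 germline meiotic genes 4 were above and 3 below, with Psmc3ip higher and Hormad1 and Mnd1 (16.3 and 14.7 against 11.6 and 9.09), the partner of Psmc3ip in strand exchange, lower.

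Of 25 early zygotic genes 8 reached the tested level, 3 above and 0 below. Dppa4 (5.48 and 3.55 FPKM in WT, 8.42 and 7.38 in cKO) and Phlda2, an imprinted growth brake of the placenta (23.04 and 21.6 against 46.1 and 37.2), were separated by over 1.5-fold, and Dppa2, the partner of Dppa4, was at 64.9 and 52.9 against 79.6 and 59.6. The sums over the list overlapped between genotypes, at 160 and 127 against 193 and 157.

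**Figure D5:**
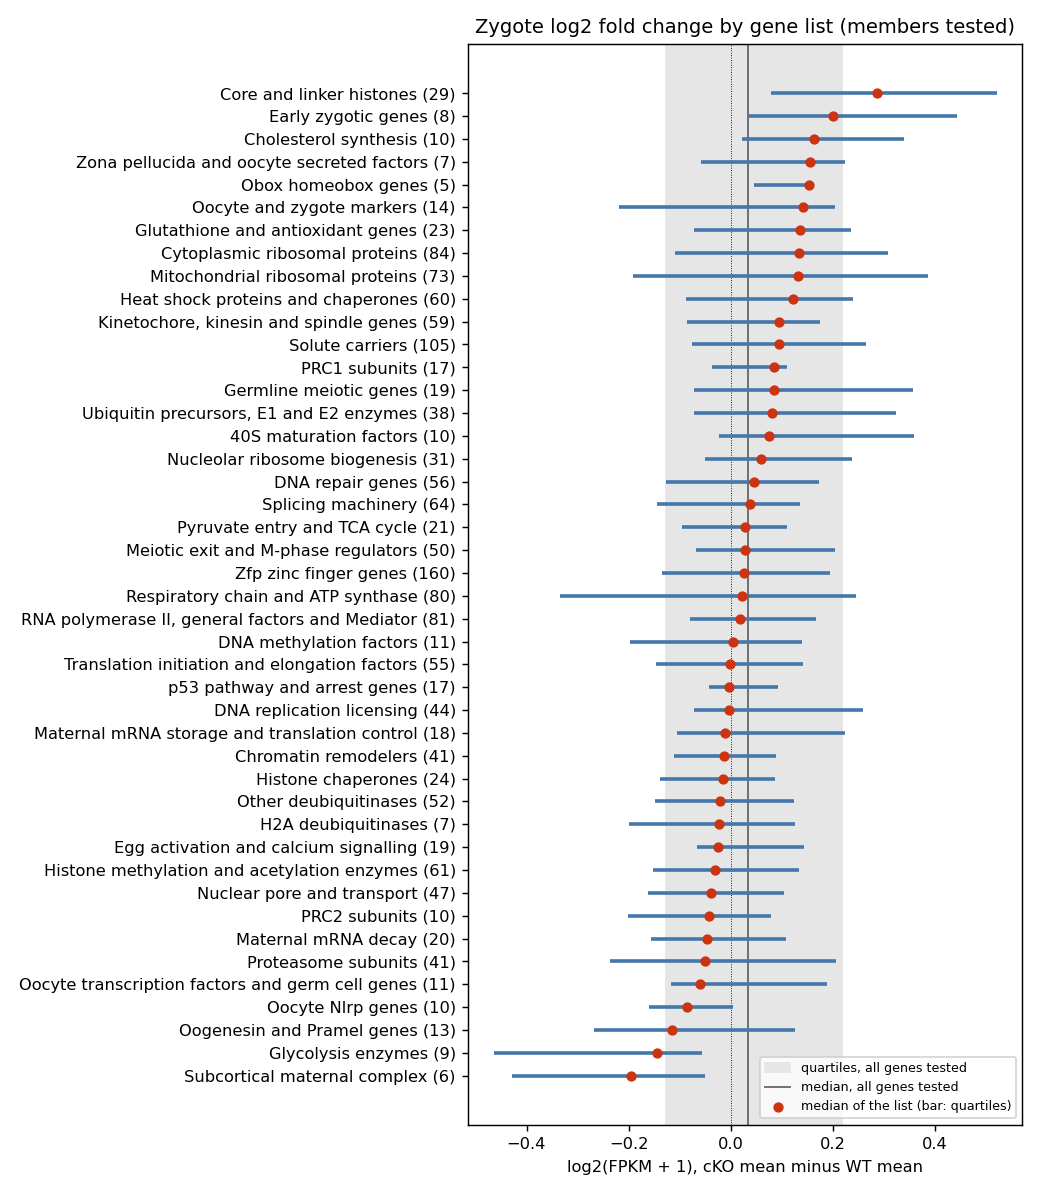
Median (points) and quartiles (bars) of the difference in log2(FPKM + 1) between cKO and WT zygotes for each gene list with at least 5 tested members, other than the small non-coding RNA genes; the grey band and line give the quartiles and median of all genes tested. The medians run from -0.20 for the subcortical maternal complex to 0.29 for the histones, beside 0.03 for all genes tested.

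Separation by over 1.5-fold was least frequent among the most abundant mRNAs. Of the 500 genes with the highest mean level, which took 61.5 to 62.6% of the summed FPKM of each library, 14 were separated by over 1.5-fold on the higher side and 8 on the lower. Of the top 20 none was, and Ldhb stood furthest from its WT level among them (4697 and 2911 against 2506 and 2577). Among tested genes under 5 FPKM, 8.56% were separated on the higher side, against 1.90% at 300 FPKM and above. On the lower side these shares were 3.69% and 0.952%. Without a fold threshold the abundant genes did not stand apart in this way. At 300 FPKM and above, both cKO libraries were above both WT libraries for 18.1% and below for 18.1%. The shares were 21.8% and 15% over all genes tested.

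The 2-cell libraries, from other embryos of the same genotypes, gave values for these genes that the zygote rule had not used. There, both cKO libraries were above both WT libraries for 17.2% of the genes tested in zygotes and below for 48.4%. Of the 480 genes separated higher in zygotes, 120 (25%) were above and 143 (29.8%) below at the 2-cell stage, and of the 176 separated lower, 30 (17.0%) were above and 88 (50.0%) below. No test of these differences was made. Of the 480 genes, 26 were at the floor in all 4 2-cell libraries, where neither direction can be seen, against 150 of the 8542. Eri1, for one, was at 7.76 and 4.74 in WT and at 34.5 and 31.4 in cKO 2-cell embryos, and Rpf2 at 101 and 81.2 against 258 and 364. Cdo1 (55.9 and 21.6 against 20 and 33.9) and Abcc4 (1.38 and 2.07 against 1.71 and 1.498) overlapped there. Kcnn2 (4.64 and 4.72 against 1 and 1) and Ifi30 (57.4 and 61.2 against 9.68 and 7.96), higher in cKO zygotes, were below WT in 2-cell embryos. In a test of the difference between the stages over the 8 libraries, 1.72% of genes had a higher and 11.5% a lower log2 fold change in 2-cell embryos than in zygotes at an adjusted p under 0.05.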

How the data were processed

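RNA-seq libraries had been made from pools of 10 embryos by an oligo-dT full-length protocol (Smart-seq2). The authors trimmed the reads, aligned them to mm9 with TopHat2 2.1.1 and made normalised FPKM values with Cufflinks 2.2.1; they removed genes under 1 in all libraries and set lower values to 1. The annotation they used is not given in the sources used here. From the deposited FPKM, WT and cKO zygotes (2 libraries each) were compared with limma 3.58.1 in R 4.3.3 on log2(FPKM + 1), with a variance trend, for genes with a mean of at least 2 FPKM, and with Benjamini-Hochberg adjustment. Fold changes on this scale understate those of low genes. Ratios of means and the separation of libraries used the values as deposited. Tables were made with Python 3.11.15, numpy 2.4.6, pandas 2.3.3 and scipy 1.17.1. Transcript lengths, positions and stop codons came from GENCODE M1 on mm9.

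The genes named were Usp16; those past limma; those over 3-fold and not overlapping; the 12 per direction with the widest gap at a mean of 10 FPKM or more; and, from each list, the 3 most abundant members and up to 4 separated by over 1.5-fold in each direction. Of these the text gives a selection, and 1 gene is not reported here. Neighbours of Usp16, the RNAs switching at the floor, the chromosomes of the genes over 3-fold higher and the Hist1h4c stem-loop were added after their values were seen. The members and lists were chosen with earlier results of these data known. The steps were tested on simulated data. Alternatives were another scaling, pseudocount, minimum level and threshold, each library left out, the replicate block and a fit of all 8 libraries. P-values measure only the spread between these samples, which may be technical.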

Additional observations from a re-analysis of the deposited data

Results flagged for a closer look

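Of the 254 genes named by the rule, 52 had a log2 fold change (cKO against WT) in 2-cell embryos that differed from that in zygotes at an adjusted p under 0.05 in limma's test of that difference over the 8 libraries. The difference was positive for 16 and negative for 36, and 40 of the 52 also passed with the replicate number as a block. Over all genes tested, 1.72% differed upwards and 11.5% downwards, so genes named from zygotes lie in a background that is mostly negative. The values below, for all but 1 of the 52, are the 2-cell log2 fold change minus the zygote one.

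Many of the 52 were named because they differed in zygotes, a choice that by itself moves this value away from the zygote direction, in both directions. Among genes higher in zygotes by the fold or the gap, it was negative for Mfhas1 (-2.35), Rn45s (-11.48), Scarna17 (-12.74), 1110007C09Rik (-3.67), Fxyd6 (-3.10), Ifi30 (-4.38), Mef2b (-1.94), Plac1 (-2.96), Prl2a1 (-1.20), Rln3 (-3.36), Tpm4 (-3.72), 1110020A21Rik (-2.20), Abcc4 (-1.36) and Kcnn2 (-2.61). D4Bwg0951e, lower in zygotes, went further the same way (-1.84). Rn45s and Mfhas1 were at the floor in all 4 2-cell libraries, and Scarna17 was above the floor in 1 WT 2-cell library only. Among egg mRNAs and their regulators it was negative for Zbed3 (-2.52), Bmp15 (-3.00), Dazl (-1.90), Eif4e1b (-2.18), Btg4 (-2.57), Cnot7 (-1.46), Cnot6l (-2.18), Uchl1 (-2.36), Obox5 (-1.85) and E330014E10Rik (-1.50). The other negative values were those of Usp3 (-1.57), Sc5d (-2.40), Txnip (-2.29), Usp46 (-1.50), Dnajb4 (-1.95), Dnajc10 (-1.76), Smarca2 (-2.56), Cenpn (-1.39), Chek1 (-2.10), Phlda2 (-2.66) and Slc16a11 (-1.87).

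Among genes of ribosomes, translation and the respiratory chain the difference was positive for Ndufs5 (4.39), Rps28 (2.33), Rpsa (2.102), Npm1 (1.76), Eif2s2 (1.62), Eef1e1 (1.73), Mrps28 (2.19), Mrpl20 (2.93) and Ndufb7 (2.19). Of these, Ndufs5, Rps28, Rpsa, Mrps28 and Mrpl20 were named as lower in zygotes. It was also positive for Usp16 (2.65), Hormad1 (4.31), Psmb5 (2.21), Psmg3 (3.05), Dppa2 (1.51) and Ran (2.04). Usp16 was at 168 and 183 FPKM in WT and 168 and 84.8 in cKO 2-cell embryos, so the gap seen in zygotes was much narrower there.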

How the results depend on the processing

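Usp16 was lower under every alternative run, with a log2 fold change of -3.39 to -3.02 when a library was left out; with no minimum level it stayed at -3.21 but did not pass limma. The number of genes that limma called higher was 4, against 7 with no minimum level and 1 without the small non-coding RNA genes, an alternative chosen after seeing the data, and from 11 to 284 when a library was left out; the number called lower was 1, and from 3 to 156. In those fits the lone library of a genotype is assumed to vary like the others. With the replicate block the counts were 257 higher and 59 lower. Libraries of the same number deviated together (correlation 0.520 over genes). With 2 pairs and no label that says what a number marks, whether they share more than a number cannot be told.

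Genes separated by over 1.5-fold numbered 480 higher and 176 lower, against 304 and 100 at a mean of at least 5 FPKM, 1175 and 608 at the lower of the other thresholds, 84 and 28 at 2-fold, and 395 to 1091 and 150 to 597 with a library left out. A pseudocount of 1 in the ratio left 108 lower. The 3-fold rule gave 15 higher and 7 lower, against 115 and 36 at 2-fold, 8 and 2 with each library beyond the threshold, and 12 to 39 and 5 to 19 with a library left out. The medians of 31 of the 49 lists changed sign under some alternative; the cause was not tested. The files give no depth, so no floor of detection could be set.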
